A study of Mus musculus with 6 samples.

Results

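Hox genes are the 39 homeobox transcription factor genes of the HoxA, HoxB, HoxC and HoxD clusters, and all 39 were taken here by their symbols from the 54309 genes of the deposited tables. Their reads and levels were summed over transcripts annotated as protein_coding, 61 of the 85 transcripts that carry these symbols. The HoxA cluster has 11 members, HoxB 10, HoxC 9 and HoxD 9. The RNA was taken 24 h after surgery from C57BL/6 mice aged 6 to 8 weeks, from the distal portion of the sciatic nerve on the left side, and gave 3 libraries from females and 3 from males. Libraries held 55272138 to 77610593 estimated reads. Each library pooled tissue of 2 animals. A treatment label calls all 6 libraries axotomy, while the procedure given for the same libraries describes a nerve exposed but not cut (sham), so the state of injury is uncertain, and both sexes share it. No other treatment, genotype or time point was analysed here, and the stated purpose of the series is to compare the sexes.

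Hox proteins bind DNA through the homeodomain, often together with cofactors of the TALE class (Pbx, Meis and Pknox). The genes lie in the clusters in the order of the body regions where they act, so that members with low numbers pattern the head and neck and members with high numbers the lumbar, sacral and tail regions and the distal limb. Genes with the same number in different clusters are paralogs, and adult connective tissue cells retain part of the code of the place they come from. The sciatic nerve runs through the hindlimb and holds Schwann cells, which arise from the neural crest, and fibroblasts, perineurial cells, vessels and immune cells.

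Paralogs of 2 groups, 10 and 8, are shown first, because they hold the 2 most expressed Hox genes, Hoxc10 and Hoxd8, beside paralogs with similar DNA whose levels ran from close to theirs (Hoxa10) to far lower (Hoxd10). Each line gives the 180 bases of the homeobox, 5′ to 3′, from the leading protein_coding transcript in GENCODE M21 (GRCm38). Capitals mark the 24 bases that encode the core of the DNA-recognition helix, found in the reading frame of the coding strand with a motif of fixed and free letters that starts with TGGTT and ends with ATGAA and 1 free letter, which 0.205% of 21901 protein_coding genes hold.
Hoxc10: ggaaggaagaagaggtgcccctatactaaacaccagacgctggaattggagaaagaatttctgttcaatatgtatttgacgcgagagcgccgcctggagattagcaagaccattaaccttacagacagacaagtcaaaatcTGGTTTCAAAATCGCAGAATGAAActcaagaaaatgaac
Hoxa10: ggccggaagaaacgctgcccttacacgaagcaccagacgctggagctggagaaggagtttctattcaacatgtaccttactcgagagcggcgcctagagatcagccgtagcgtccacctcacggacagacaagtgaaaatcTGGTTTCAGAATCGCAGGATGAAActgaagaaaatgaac
Hoxd10: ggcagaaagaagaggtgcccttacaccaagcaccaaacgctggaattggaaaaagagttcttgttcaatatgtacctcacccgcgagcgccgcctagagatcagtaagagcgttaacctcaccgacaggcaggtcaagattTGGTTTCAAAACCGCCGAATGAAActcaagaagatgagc
Hoxd8: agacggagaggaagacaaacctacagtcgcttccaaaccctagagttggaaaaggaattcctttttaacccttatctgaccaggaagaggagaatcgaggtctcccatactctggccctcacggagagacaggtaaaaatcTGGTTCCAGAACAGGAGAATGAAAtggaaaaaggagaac
Hoxc8: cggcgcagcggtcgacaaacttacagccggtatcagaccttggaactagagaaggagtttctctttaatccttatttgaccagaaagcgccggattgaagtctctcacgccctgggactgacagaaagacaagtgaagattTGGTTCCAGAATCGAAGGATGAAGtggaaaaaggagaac
Hoxb8: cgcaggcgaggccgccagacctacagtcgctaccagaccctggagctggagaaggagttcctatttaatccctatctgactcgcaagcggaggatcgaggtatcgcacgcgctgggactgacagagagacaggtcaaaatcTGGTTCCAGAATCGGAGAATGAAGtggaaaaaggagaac

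The homeoboxes of Hoxc10 and Hoxa10 were identical at 80.6% of bases, those of Hoxc10 and Hoxd10 at 82.8%, and those of Hoxd8 and Hoxc8 at 73.3%. The motif was found in 35 members, and the 4 members of group 13 do not match it. Median identity over the 180 bases was 81.95% for the 36 pairs within a paralog group and 63.3% for other pairs within a cluster. The longest exact run that protein_coding transcripts of any pair of members shared was 52 bases, between Hoxa6 and Hoxb4, against reads of 100 nt. No pair shared a run as long as a read.

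By summed level, the nerve expressed mostly groups 4 to 8 and groups 9 to 11, which have 15 and 10 members. Groups 1 to 3 were expressed with a smaller summed level, and groups 12 and 13 were nearly silent. Levels are given in TPM, a share of the library that is scaled by transcript length and so can be compared between genes. A mean of at least 1 TPM over the 6 libraries was reached by 20 of 39 members (51.3%), against 61.0% of 21669 genes with a protein_coding transcript. These 20 members came from groups 2 to 11, and 3 of the 8 members of groups 1 to 3 were among them. No member reached 10 TPM, a level that 42.3% of genes with a protein_coding transcript had. Those genes were summed over all their transcripts; summed in that way, 21 members had at least 1 TPM and Hoxa10 was at 10.9 TPM. The median of the 20 members was 2.26 TPM, against 20.1 TPM for all such genes at 1 TPM or more. Hoxc10, the highest member, lay at the 22.7th percentile of those genes.

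**Figure D1:**
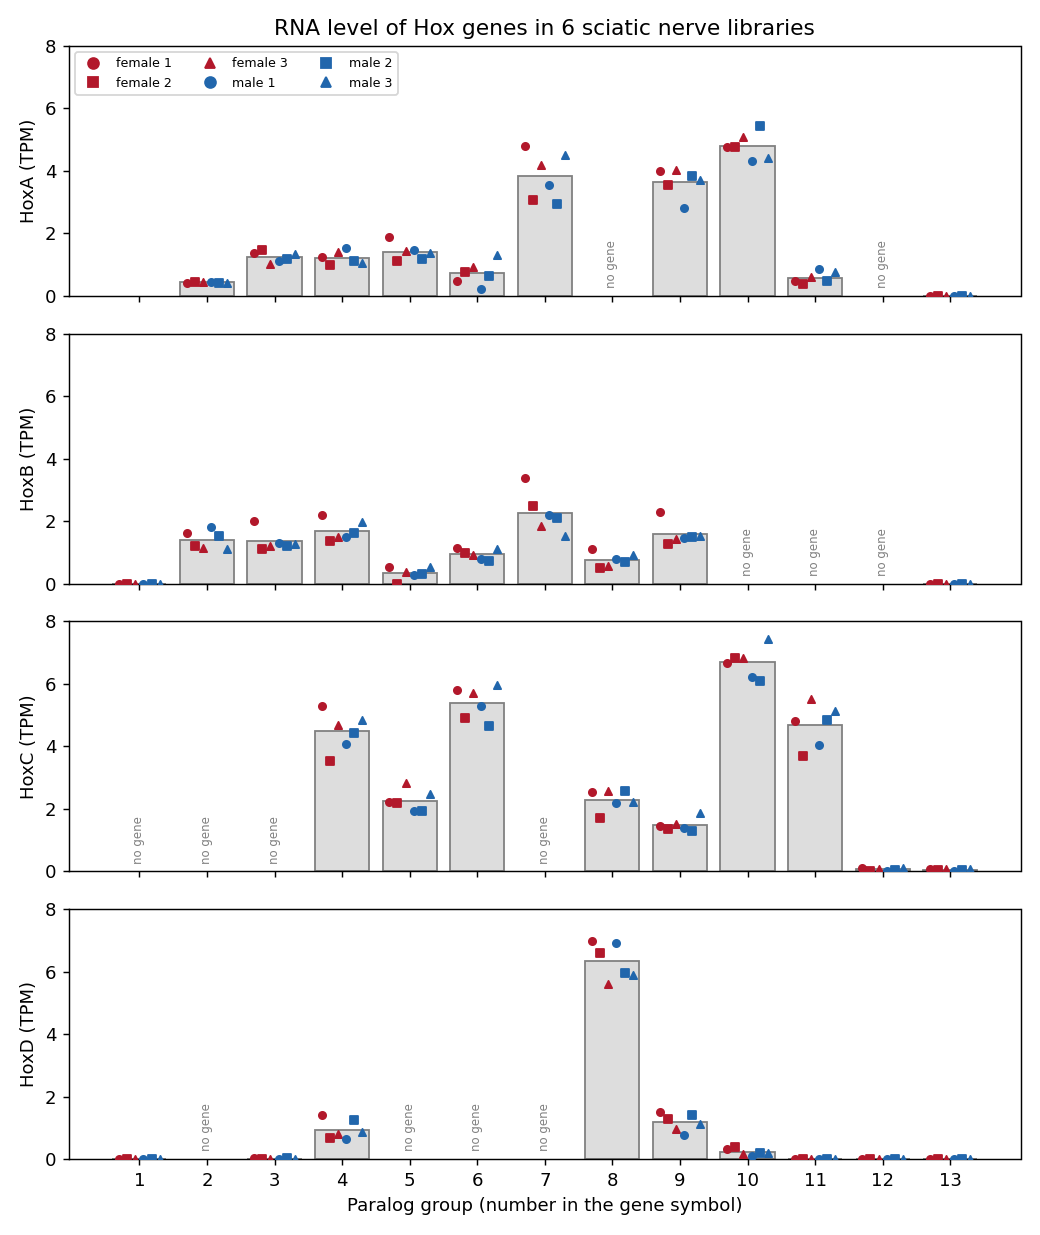
Level in TPM (vertical axis) of each Hox gene by paralog group (horizontal axis), with 1 panel per cluster; grey bars are means over 6 libraries, and points are single female (red) and male (blue) libraries; 1 HoxA gene is not drawn. The highest bars are Hoxc10 (6.69 TPM) and Hoxd8 (6.33 TPM), and groups 12 and 13 lie near 0 in every cluster.

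HoxC was the most expressed cluster, with 42.1% ± 2.21 of the summed Hox TPM (SD, n = 6 libraries). HoxA took 28.6% ± 0.775, HoxB 15.8% ± 1.98 and HoxD 13.4% ± 1.42. The HoxC sum was the largest of the 4 in every library, at 24.3 to 30.2 TPM, and the HoxA sum came next, at 17.0 to 20.2 TPM. All 7 HoxC members from Hoxc4 to Hoxc11 had a mean of at least 1 TPM, against 6 of 11 HoxA, 5 of 10 HoxB and 2 of 9 HoxD members. Summed over all transcripts of each symbol rather than protein_coding ones, the HoxA share was 33.0%.

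By position, groups 4 to 8 held 53.6% ± 1.58 of the summed Hox TPM and groups 9 to 11 held 38.3% ± 1.97 (SD, n = 6). These sums were not divided by the number of members, which was 15 in groups 4 to 8 and 10 in groups 9 to 11. A mean of at least 1 TPM was reached by 10 of the 15 and by 7 of the 10. Groups 1 to 3 held 7.94% ± 0.983 and groups 12 and 13 held 0.197% ± 0.0991. Group 10, whose members pattern the lumbar region, was the largest single group at 18.1% ± 1.41, followed by group 8 at 14.5% ± 1.12, group 4 at 12.8% ± 0.938 and group 9 at 12.1% ± 0.848. The step from group 11 (8.10% ± 0.907) to group 12 (0.104% ± 0.0572) marked the end of detectable levels above 1 TPM.

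**Figure D2:**
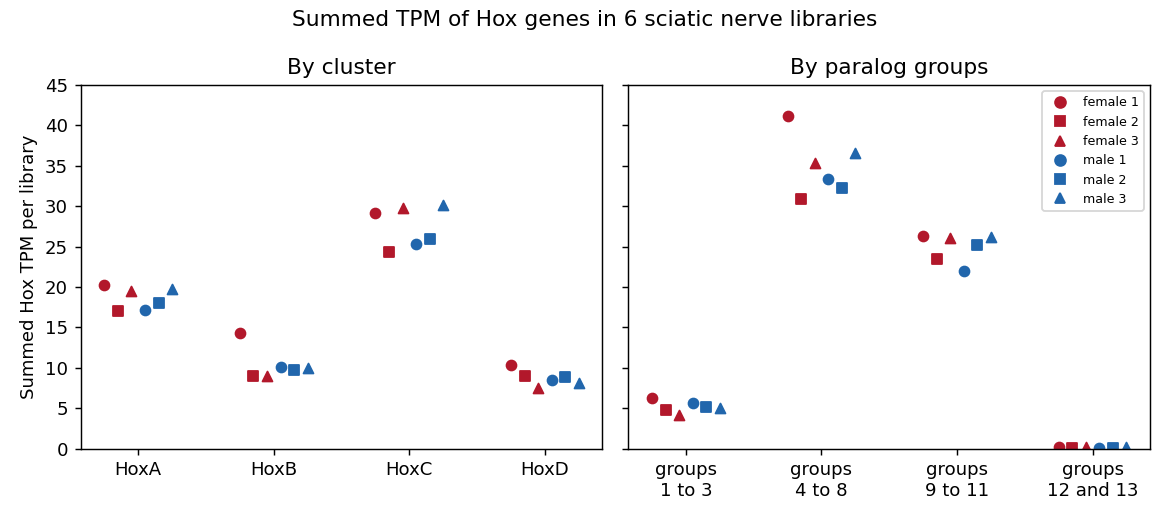
Summed TPM (vertical axis) of the members of each cluster (left) and of ranges of paralog groups (right), with 1 point per library. HoxC is highest in all 6 libraries. Groups 4 to 8, with 15 members against 10 in groups 9 to 11, hold the largest sums. The HoxB point of female 1 (14.3 TPM) stands above the other 5 libraries (8.95 to 10.1 TPM).

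Among HoxC genes, Hoxc10, a patterning gene of the lumbar region and hindlimb, was at 6.68, 6.82 and 6.83 TPM in females 1 to 3 and at 6.23, 6.10 and 7.44 TPM in males 1 to 3. It varied least of the 20 members, with a coefficient of variation of 7.16%. Hoxc6, which marks forelimb levels of the spinal cord, was at 5.81, 4.91 and 5.71 TPM in females and 5.31, 4.66 and 5.96 TPM in males. Both genes overlapped between the sexes.

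Hoxc11, a neighbour of Hoxc10 with a role in the hindlimb, was at 4.82, 3.70 and 5.52 TPM in females and 4.06, 4.85 and 5.15 TPM in males. Hoxc4 was at 5.31, 3.52 and 4.68 TPM in females and 4.09, 4.44 and 4.86 TPM in males. Female 2 was the lowest library for both. Hoxc8 was at 2.53, 1.72 and 2.56 TPM in females and 2.20, 2.56 and 2.21 TPM in males, again lowest in female 2. Hoxc5 was at 2.23, 2.19 and 2.83 TPM in females and 1.94, 1.92 and 2.49 TPM in males. Hoxc9, which sets thoracic identity in the spinal cord, was at 1.49 ± 0.196 TPM (SD, n = 6), below its neighbours Hoxc8 and Hoxc10. Beyond Hoxc11 the cluster was nearly silent: Hoxc12 had 1.0 to 4.0 reads and Hoxc13, a gene of hair and nail, 1.0 to 9.0 reads per library.

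In HoxA the high members were Hoxa7, Hoxa9 and Hoxa10. Hoxa10, a lumbar patterning gene that also acts in the uterus, was at 4.76, 4.76 and 5.10 TPM in females and 4.33, 5.45 and 4.40 TPM in males. Hoxa7 was at 4.80, 3.06 and 4.20 TPM in females and 3.54, 2.93 and 4.52 TPM in males. Hoxa9, known for its role in blood stem cells and leukaemia, was at 3.99, 3.55 and 4.03 TPM in females and 2.80, 3.85 and 3.70 TPM in males. The 3 genes overlapped between the sexes.

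Members of HoxA with lower numbers were weaker. Hoxa5, a gene of lung development, was at 1.41 ± 0.269 TPM, Hoxa3, needed for the thymus, at 1.25 ± 0.175 TPM and Hoxa4 at 1.23 ± 0.210 TPM (SD, n = 6). Hoxa6 was at 0.720 ± 0.376 TPM and rested on 8.0 to 35.0 reads. Hoxa2, a selector gene of the pharyngeal arches, was at 0.437 ± 0.0161 TPM. At the other end Hoxa11, a gene of the middle limb segment and the uterus, was at 0.590 ± 0.180 TPM. Hoxa13, a gene of the digits and the genital tract, had at most 1.0 read in a library.

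HoxB was expressed from Hoxb2 to Hoxb9. Its highest member, Hoxb7, was at 3.39, 2.48 and 1.86 TPM in females and 2.19, 2.11 and 1.53 TPM in males. Hoxb4, known for its effect on blood stem cells, was at 2.20, 1.38 and 1.48 TPM in females and 1.48, 1.62 and 1.98 TPM in males. Hoxb9 was at 1.58 ± 0.357 TPM, Hoxb2 at 1.40 ± 0.287 TPM and Hoxb3 at 1.36 ± 0.330 TPM (SD, n = 6). Hoxb3os, on the opposite strand, shares 2250 exon bases with Hoxb3 and 953 with Hoxb2. Hoxb6 (0.953 ± 0.165 TPM), Hoxb8 (0.766 ± 0.225 TPM) and Hoxb5 (0.341 ± 0.198 TPM) stayed below 1 TPM. Hoxb1, a hindbrain gene, and Hoxb13, a gene of the tail and prostate, had no read in any library.

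Female 1 was the highest library for 4 of the 5 HoxB members at 1 TPM or more, and its HoxB sum of 14.3 TPM stood apart from 8.95 to 10.1 TPM in the other libraries. Its sums were also the highest for HoxA (20.2 TPM) and HoxD (10.3 TPM), but not for HoxC (29.1 TPM, against 30.2 TPM in male 3). All Hox genes summed to 73.8 TPM in female 1 and to 59.2 to 68.0 TPM in the other libraries. Without female 1 the HoxB share was 15.1%. Female 1 was also the library with keratinocyte RNA: Krt14 was at 13.5 TPM and Krt5 at 5.98 TPM there, and the other libraries had at most 0.0328 and 0.0252 TPM. The third keratinocyte marker, Krt10, lay between 3.78 and 5.70 TPM in the 6 libraries, and the sum of the 3 markers was 24.4 TPM in female 1 against 3.84 to 5.70 TPM. The part of these cells in the HoxB level was not tested.

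Most of the HoxD sum came from Hoxd8. Hoxd8 was at 6.97, 6.59 and 5.62 TPM in females and 6.92, 5.97 and 5.91 TPM in males, a mean of 6.33 TPM out of a cluster sum of 8.71 TPM. Hoxd9 was at 1.18 ± 0.286 TPM and Hoxd4 at 0.945 ± 0.317 TPM (SD, n = 6). Hoxd10, a gene of hindlimb motor neurons in the spinal cord, was at 0.227 ± 0.104 TPM and rested on 8.0 to 25 reads. Hoxd11 and Hoxd12 had no read in protein_coding transcripts in any library, and Hoxd1 and Hoxd13 had at most 1.0. A processed transcript of Hoxd11 had at most 2.0 reads in a library. Hoxd3 had at most 4.6 reads, but its exons overlap by 2225 bases with Gm28230, a gene on the same strand that also overlaps Hoxd4 and held 34.2 to 57.0 reads, so that the split between Hoxd3 and Gm28230 is uncertain. Where a member had 0 reads, 3 reads is the limit that a count of 0 allows, which is at most 0.0543 CPM in any library and covers counting error only.

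Paralogs of one group differed in level in the same direction in most libraries. In group 10, Hoxc10 was above Hoxa10 in 6 of 6 libraries (1.39-fold by the means) and above Hoxd10 in 6 of 6 (29.5-fold). The order of Hoxc10 and Hoxa10 turned over all transcripts, with Hoxa10 at 10.4 to 11.5 TPM and Hoxc10 at 6.10 to 7.44 TPM. In group 8, Hoxd8 was above Hoxc8 in 6 of 6 (2.75-fold) and Hoxc8 above Hoxb8 in 6 of 6 (3.00-fold). In group 11, Hoxc11 was above Hoxa11 in 6 of 6 (7.94-fold). The HoxC member also led groups 4, 5 and 6 in 6 of 6 libraries, with Hoxc6 5.66-fold above Hoxb6 and Hoxc4 2.66-fold above Hoxb4. Group 9 was led by Hoxa9, and it was the one group with 4 members that all had a mean of at least 1 TPM; Hoxb9 and Hoxc9 each led the other in 3 of 6 libraries.

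In the order of mean levels, many neighbours crossed between libraries. Hoxc10 was above Hoxd8 in 4 of 6 libraries, with a difference of 0.353 TPM and an SD of that difference of 0.858. Hoxd8 and Hoxc6 differed by 0.937 TPM (SD 0.805), with Hoxd8 higher in 4 of 6. Hoxc6 and Hoxa10 differed by 0.595 TPM (SD 0.824), with Hoxc6 higher in 5 of 6, and Hoxa10 and Hoxc11 by 0.114 TPM (SD 0.663), with Hoxa10 higher in 3 of 6. The first clear steps were from Hoxc4 to Hoxa7 (0.640 TPM, 6 of 6 libraries) and from Hoxa9 to Hoxc8 (1.35 TPM, SD 0.409, 6 of 6 libraries). The 8 members above the latter step held 61.2% of the summed Hox TPM.

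No Hox gene differed between the sexes past the threshold. Of the 39 members, 29 passed the filter on low counts, and 0 of these 29 had an adjusted p under 0.05 in edgeR's quasi-likelihood test of female against male, where 0.110% of 19138 rows tested did (21, 3 of them higher in females and 18 in males). At an unadjusted p under 0.05, edgeR found 1 member against 14.5% of all rows, and DESeq2 and limma-voom each found 1 member and called 0. The median log2 fold change, female minus male, was 0.024 over the 29 members and 0.016 over all rows, with 17 members above 0 and 12 below. The summed Hox TPM was 66.3 ± 7.29 in females and 63.9 ± 3.61 in males (SD, n = 3 each). In these pooled tissues fewer cells of a type and less RNA per cell cannot be told apart.

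The intervals limit how large a difference could have been missed. For the 12 highest members the 95% intervals of the log2 fold change lay between -0.53 and 0.99, and for 24 of the 29 members they lay within -1 and 1. The interval ran from -0.21 to 0.25 for Hoxc10, from -0.31 to 0.36 for Hoxd8 and from -0.28 to 0.34 for Hoxc6. The widest were those of Hoxb5 (-2.48 to 1.94) and Hoxa6 (-1.33 to 1.39).

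**Figure D3:**
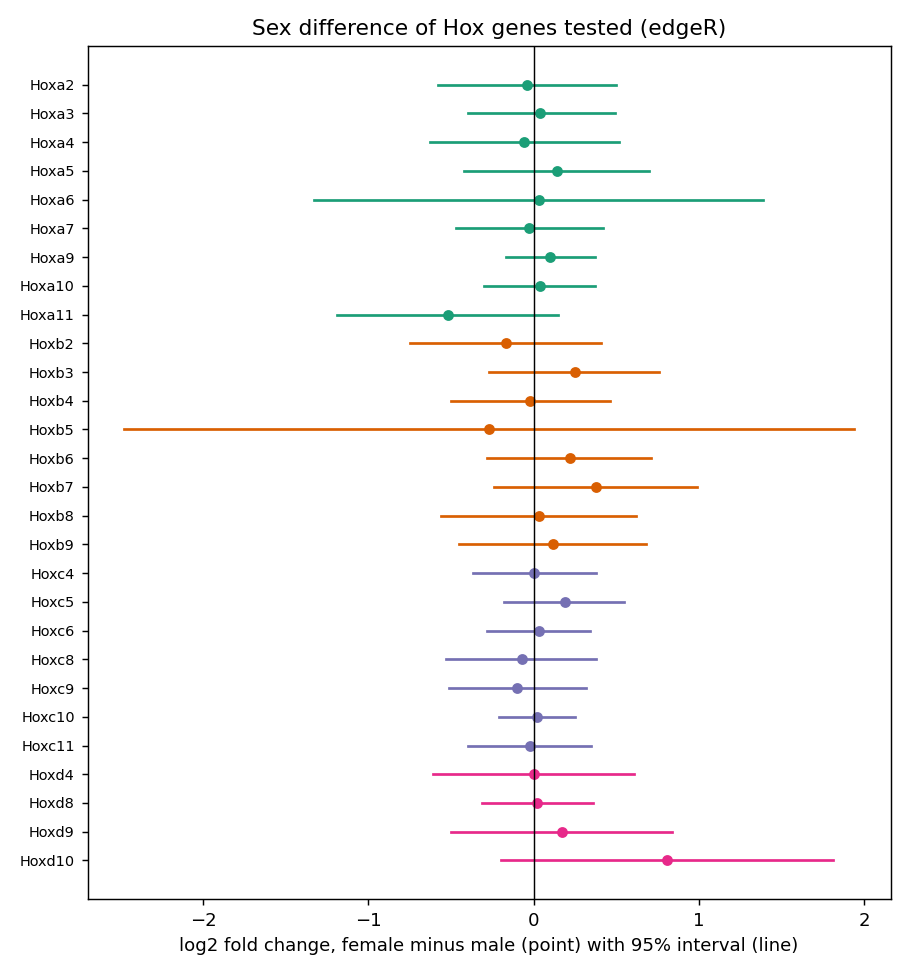
Log2 fold change of female against male (horizontal axis; points) with 95% intervals (lines) for the Hox genes tested except 1 that is not drawn, in cluster order and coloured by cluster. The intervals of all genes drawn include 0, and the widest is that of Hoxb5 (-2.48 to 1.94).

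Of the 29 members tested, 1 had groups that did not overlap, where 19.5% of all rows tested had groups that did not overlap. Members with small p that are named here had groups that overlapped. Hoxd10 was at 0.327, 0.377 and 0.160 TPM in females and 0.102, 0.202 and 0.194 TPM in males, with a log2 fold change of 0.81 (SE 0.43, edgeR adjusted p 0.445). Hoxa11 was at 0.475, 0.399 and 0.592 TPM in females and 0.848, 0.466 and 0.763 TPM in males (log2 fold change -0.52, SE 0.29, edgeR adjusted p 0.464). Hoxa11os, on the opposite strand, shares 800 exon bases with it, and no source used here says if reads were counted by strand. The values of Hoxb7 and Hoxc5 in each library are given above; their log2 fold changes were 0.38 (SE 0.27, edgeR adjusted p 0.565) and 0.19 (SE 0.16, edgeR adjusted p 0.635). Female 1, the highest library of Hoxb7, moved its value most, and without it the change was 0.13.

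The libraries differed in markers of Schwann cells, fibroblasts, skeletal muscle and adipocytes. The 8 Schwann cell markers, among them Mbp, Sox10, S100b and Egr2, were present in all libraries, with summed levels of 6810 to 10700 TPM in females and 14800 to 18300 TPM in males; 0 of 8 passed the edgeR test, and all 8 log2 fold changes were below 0. Nerve fibroblast markers summed to 3220 to 4160 TPM in females and 4490 to 5820 TPM in males, with Dcn alone at 2880 TPM on average. Of these 8 markers 0 passed the edgeR test, with 7 log2 fold changes below 0 and 1 above (Pdgfra, 0.07). Skeletal muscle markers summed to 1180 TPM in female 2 and 591 TPM in male 1, against 9.44 to 22.5 TPM elsewhere, and adipocyte markers were highest in female 2 (2400 TPM against 745 to 1590 TPM). Of the members at 1 TPM or more, female 2 was lowest for 3 of 5 HoxB and 3 of 7 HoxC genes. That library was also lowest for 2 of 6 HoxA and 0 of 2 HoxD genes. Male 1 was lowest for 2 of 6 HoxA and 1 of 2 HoxD genes and for 0 of HoxB or HoxC. Male 2, with little muscle RNA, was lowest for 1 of 6 HoxA, 4 of 7 HoxC and 0 of the HoxB and HoxD genes. The motor neuron markers Chat, Mnx1, Slc5a7 and Slc18a3 summed to at most 0.121 TPM, and the 8 sensory neuron markers to 17.0 to 22.8 TPM, most of it from Tubb3 (13.3 TPM on average), Prph (3.03 TPM) and Calca (2.62 TPM), while Scn10a and Pou4f1 lay at or below 0.285 TPM. The part of these contents in any Hox level was not tested.

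For some members a large share of reads lay in transcripts that are not annotated as protein_coding. In Hoxa10 that share was 48.2% on average (41.3% to 54.1%), nearly all of it in a processed transcript of 1710 bases, which had 5.24 to 7.09 TPM. Counted over all its transcripts, Hoxa10 was the highest Hox gene at 10.9 ± 0.398 TPM (SD, n = 6), ahead of Hoxc6 at 9.36 ± 1.34 TPM and Hoxc10 at 6.69 ± 0.479 TPM. The order of the highest members therefore depends on which transcripts are counted. The share was 26.2% in Hoxc8, 22.3% in Hoxc6, 19.0% in Hoxd4 and 18.1% in Hoxb2.

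Hoxb5 showed the same split at low depth. Its protein_coding transcript had 43.2, 0.0 and 32.6 reads in females 1 to 3 and 24.6, 20.7 and 31.2 reads in males 1 to 3. The retained-intron transcript of the gene had 24.8, 25 and 23.4 reads in females and 11.4, 11.3 and 12.1 reads in males. In female 2 all reads of the gene were thus assigned to the retained-intron form. Over all transcripts the log2 fold change of Hoxb5 was 0.19 (SE 0.37, edgeR adjusted p 0.863), and over protein_coding ones it was -0.27 (SE 0.92).

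**Figure D4:**
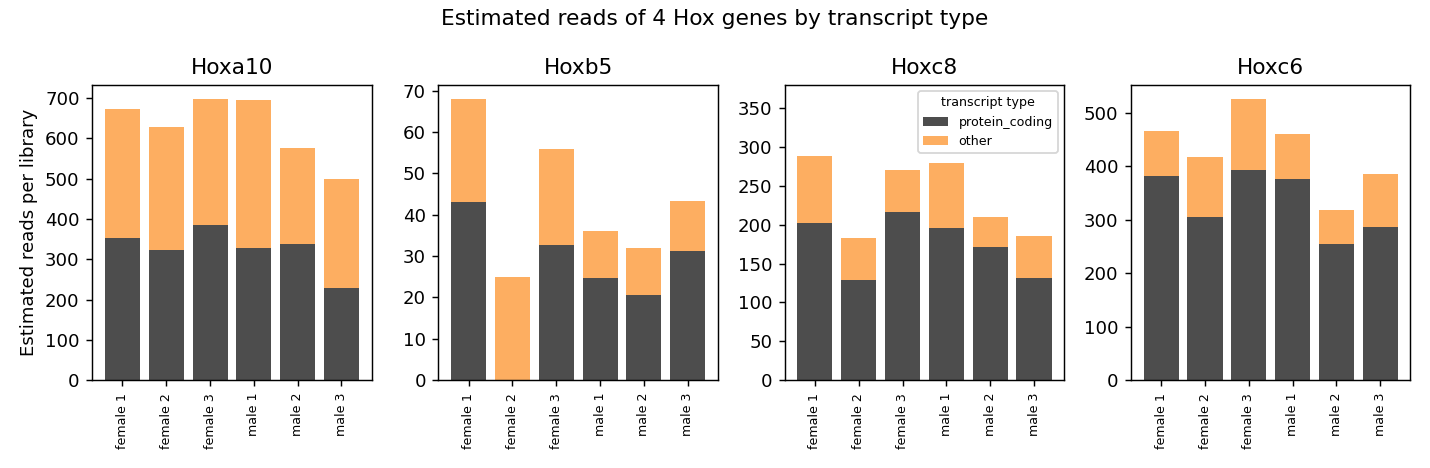
Estimated reads (vertical axis) of Hoxa10, Hoxb5, Hoxc8 and Hoxc6 in each library, split into protein_coding transcripts (dark) and other transcripts (orange). Other transcripts hold about as many reads as protein_coding ones in Hoxa10, and all 25 reads of Hoxb5 in female 2.

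The TALE cofactors were all present: 9 of 9 had a mean of at least 1 TPM and 0 of 9 passed the edgeR test between the sexes, with a median log2 fold change of 0.12. Pbx3 was at 5.69 ± 0.899 TPM in females and 5.30 ± 0.287 TPM in males (SD, n = 3 each). Meis1 was at 3.12 ± 0.237 TPM in females and 2.76 ± 0.0988 TPM in males, and Meis2 at 5.27 ± 0.295 and 4.82 ± 0.514 TPM. These levels lay within the range of the Hox genes. Of 12 limb identity factors 5 had a mean of at least 1 TPM and 0 of the 11 tested passed. Pitx1, a factor that specifies the hindlimb, was at 1.14 ± 0.0272 TPM in females and 1.21 ± 0.252 TPM in males. Tbx4, its hindlimb partner, was at 0.152 TPM on average, and Tbx5, the forelimb counterpart, at 0.132 TPM (0.0196 to 0.429).

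Of the 10 noncoding RNA genes of the clusters in the tables, 5 had a mean of at least 1 TPM and 0 of 7 tested passed. Hotairm1 was the highest, at 14, 7.66 and 8.16 TPM in females and 10.7, 8.96 and 10.3 TPM in males, with female 1 highest. Hotair, transcribed between Hoxc11 and Hoxc12, was at 1.14 ± 0.0902 TPM in females and 1.07 ± 0.253 TPM in males. Hottip, which lies beside Hoxa13, had no read in any library. Outside the cluster ends, 7 of 11 genes had a mean of at least 1 TPM, against 61.0% of genes with a protein_coding transcript. Skap2, beside the HoxA cluster, was at 92.9 TPM and Mtx2, next to Hoxd1, at 41.2 TPM. Evx1, next to Hoxa13, and Evx2, next to Hoxd13, were at 0.00123 and 0.0 TPM.

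Among genes that act upstream of Hox expression, 1 of 20 chromatin regulators passed the edgeR test. In the retinoic acid and Cdx list 1 of 11 tested genes passed, and over all rows tested 0.110% did. Kdm6a, an X-linked enzyme that removes a repressive histone mark from Hox genes, was at 23.2, 27.6 and 26.7 TPM in females and 12.6, 16 and 17.0 TPM in males. The Kdm6a groups did not overlap, which also held for 19.5% of all rows tested. Its log2 fold change was 0.74 (SE 0.08, edgeR adjusted p 0.0295), a call lost in 9 of 17 alternatives, where the adjusted p reached 0.185. Aldh1a2, which makes retinoic acid, was at 13.4, 14.1 and 15.4 TPM in females and 28.6, 29.4 and 29.5 TPM in males. Its groups did not overlap either (log2 fold change -1.03, SE 0.08, edgeR adjusted p 0.00413); the call was lost in 2 of 17 alternatives, without male 2 (adjusted p 0.0595) and with the replicate number as a block (0.0675). The median log2 fold changes of both lists were -0.02. Cdx1, Cdx2 and Cdx4, which switch on Hox genes in the embryo, were at or below 0.00465 TPM on average.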

How the data were processed

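The libraries were made from poly-A selected RNA with a stranded kit and read in pairs of 100 nt, per the labels' protocols. Trimmomatic 0.39, Salmon 1.5.2 and MultiQC 1.9 appear in the submitters' processing notes. For each of 140789 transcripts the authors deposited its TPM and its estimated count, per the file headers. The estimated counts were not scaled by the authors, and TPM values are as Salmon gave them. The build and annotation are not given in the sources used; all 61 protein_coding Hox transcripts were found by identifier in GENCODE M21 (GRCm38), 60 of them with the same length, and no coordinates are printed. Salmon divides reads between overlapping transcripts by an estimate.

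Libraries held 55272138 to 77610593 estimated reads. Counts were summed per gene (Hox genes over protein_coding transcripts, with their other transcripts as separate rows; other genes over all transcripts), rounded and filtered with filterByExpr, which left 19138 rows. TMM factors ran from 0.968 to 1.02. Female was compared with male with edgeR 4.0.16 (quasi-likelihood, robust, no covariate; R 4.3.3), with Benjamini-Hochberg adjustment over all rows and a threshold of 0.05. Intervals are the log2 fold change with its SE and the t distribution of the fit. The test was tested on simulated counts. DESeq2 1.42.0 and limma 3.58.1 served as alternatives. No replicate pair agreed within sampling noise (chi-square of at least 26.3 per degree of freedom). The labels give 2 pooled animals per library, and p-values measure the spread between these pools.

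The members and gene lists were chosen with earlier results of these data known. Values in every library are given for the 12 members with the highest mean TPM and the 5 tested members of smallest p, except 1; genes of the lists were named by call or by a fixed set. The remaining named genes (the 2 flanking genes Skap2 and Mtx2 with Evx1 and Evx2, the Cdx genes, and the overlapping genes Gm28230 and Hoxa11os) were chosen after their values were seen. Some items that these rules name are not reported here.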

Additional observations from a re-analysis of the deposited data

Results flagged for a closer look

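Reads in Hox transcripts that are not annotated as protein_coding lay outside the main sums and were above 3 reads, the limit that a count of 0 allows, in every library for 9 genes. Hoxa10 had 237.7 to 367.5 such reads per library, Hoxc6 63.3 to 132.0, Hoxc8 38.1 to 87.0 and Hoxa9 38 to 70.4. Hoxd4 had 16 to 29.8 reads, Hoxb5 11.3 to 25, Hoxb2 10 to 24.5, Hoxa3 7.0 to 24.7 and Hoxa7 4.1 to 40. What produced these reads was not tested.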

How the results depend on the processing

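Among Hox genes, 0 passed the threshold in each of the 17 alternatives run. The all-gene count of 21 was 191 with no low-count filter, 871 with DESeq2, 10 with limma on log2(TPM + 1), 3 with the replicate block, and 4 to 205 with 1 library left out (205 without female 3, 13 without male 1, 10 without female 2, 7 without female 1, 6 without male 3 and 4 without male 2). The count of 20 members at 1 TPM or more was 11 at a threshold of 2 TPM, and 20 or 21 with 1 library left out. The HoxA share was 33.0% over all transcripts, 27.1% by CPM and 25.1% by the mean over a cluster's genes; the HoxC share was 45.2% by that mean and the HoxD share 11.7% over all transcripts. HoxC was the largest in each alternative. The labels name no shared litter or day for libraries of the same replicate number. Deviations from the mean of each sex correlated at -0.10, -0.19 and 0.01 between same-numbered libraries, and at -0.07 to 0.14 between others. Such deviations sum to 0 over the 3 libraries of a sex, so these correlations cannot exclude a pairing. Hoxa6 (8.0 to 35.0 reads per library) and Hoxd10 (8.0 to 25 reads) rested on few reads; the SE of Hoxb5 was 0.92 over protein_coding transcripts and 0.37 over all.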
